A study of Arabidopsis thaliana with 12 samples.

Results

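Gene expression was compared between seedlings of a line that carries an inducible form of WUSCHEL (WUS) and wild-type Col-0 seedlings, both treated with dexamethasone (DEX) alone. The comparison uses 6 of the 12 RNA-seq libraries of the series, 3 per genotype, chosen by their labels as DEX-treated without the histone deacetylase inhibitor TSA. The WUS-GR line carries *pUBI10::mCherry-GR-linker-WUS*, named *pUBQ10:mCherry-GR-linker-WUS* in the study's text, in the Col-0 background. The promoter is active in nearly all tissues, so WUS was present far outside its normal domain. The hormone-binding part of the glucocorticoid receptor (GR) holds the fusion protein in the cytoplasm until DEX releases it into the nucleus. Whole seedlings were taken 5 days after germination and kept for 2 h in liquid medium with DEX and a wetting agent. The labels give 25 µM DEX, while the methods give another concentration. DEX was given to both groups and mock-treated WUS-GR seedlings were not analysed here, so differences between the lines that exist before induction and the response to induced WUS cannot be told apart. The line is a single line, so effects of its insertion site cannot be told apart from those of WUS either.

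WUS is a homeodomain transcription factor made in the organizing centre of the shoot apical meristem. It moves into the overlying cells and keeps them in a stem cell state. It acts mostly as a repressor, through an interaction with TOPLESS-type co-repressors that bring histone deacetylases to their targets, and it can also activate genes such as *CLV3*. The seedlings were used to follow what WUS can regulate in any tissue.

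Between 14984125 and 20466344 counts were assigned to genes in the Col-0 libraries and between 19531836 and 20364737 in the WUS-GR libraries. *WUS* (AT2G17950, chromosome 2, 7808871 to 7810811, minus strand in the TAIR10.1 annotation) had 27, 47 and 52 counts in the Col-0 libraries and 112961, 118246 and 110757 counts in the WUS-GR libraries. The count includes reads of the transgene and is as the labels require. Replicates of a genotype varied more than counting alone allows (chi-square divided by its degrees of freedom, 8.09 to 17.1), so each library was kept as a replicate of its own. Levels are given in CPM, counts scaled to the TMM-normalized library total, and a change as the log2 fold change of WUS-GR against Col-0 ± its standard error. Adjusted p-values come from the quasi-likelihood test of edgeR, corrected by Benjamini-Hochberg over all 17285 genes tested, and a gene is called higher or lower where this value is under 0.05. Whole seedlings hold many cell types, and fewer cells of a type and less RNA per cell cannot be told apart in such samples.

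Of the 17285 genes tested, 5059 (29.3%) were higher and 4943 (28.6%) were lower in WUS-GR, which is 10002 genes or 57.9% in all. A change of at least 2-fold was found among them for 1768 higher and 1911 lower genes. At 8-fold or more, 155 genes were higher, 97 of them nuclear, and 256 were lower, all nuclear. The 3 WUS-GR libraries lay wholly above or below the 3 Col-0 libraries for 11247 genes (65.1%). The largest changes named below from each gene list were chosen among genes without overlap. Their lack of overlap was thus set by the choice and is no further support. The median log2 fold change was 0.017 over all genes tested, and its median size over the called genes was 0.76. Most calls were thus of small changes in both directions, and the counts in each gene group are read against these shares.

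**Figure D1:**
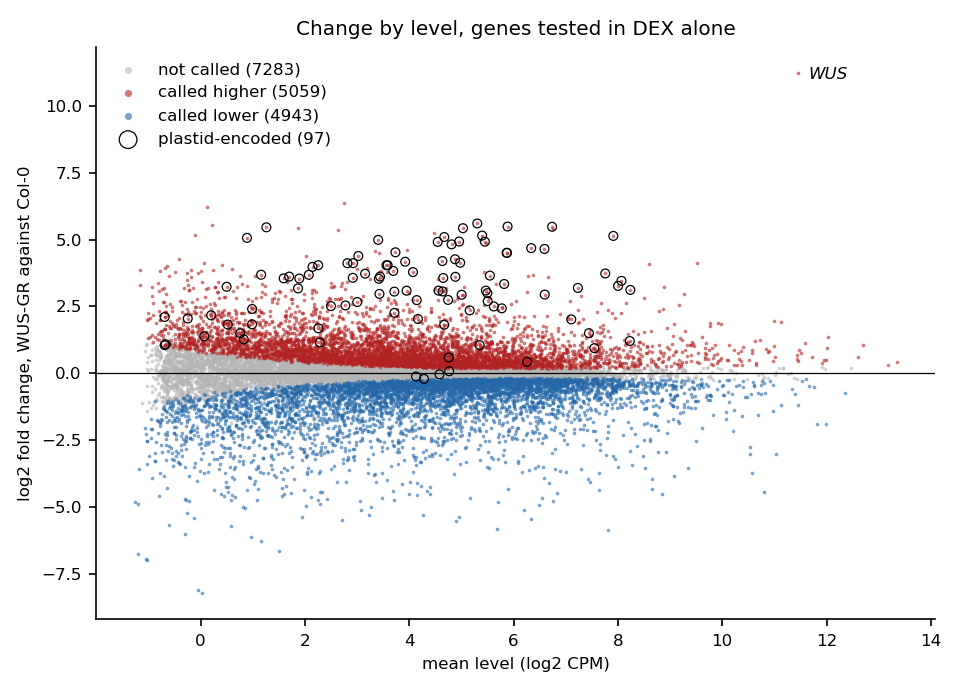
Log2 fold change of WUS-GR against Col-0 (vertical axis) by mean level in log2 CPM (horizontal axis) for each of the 17285 genes tested, with genes called higher, called lower and not called in different colours and plastid-encoded genes ringed. Called genes lie on both sides of 0 at all levels, 5059 above and 4943 below, and *WUS* stands at 11.24.

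Among nuclear genes above a mean log2 CPM of 3, the largest rises after *WUS* itself were led by cold-regulated genes. *COR15A*, *KIN1* and *COR15B* were the genes with the largest rises, and *LTI78* was also among the first 10. *ADH1*, alcohol dehydrogenase, rose from 2.87 to 84.7 CPM (log2 fold change 4.88 ± 0.12), with 2.95, 2.39 and 3.27 CPM in the Col-0 libraries and 78.6, 86.0 and 89.3 CPM in the WUS-GR libraries. *LSU3* (AT3G49570), a gene induced by low sulphur, rose from 1.19 to 29.1 CPM (log2 fold change 4.62 ± 0.14). *LOX2*, the chloroplast lipoxygenase of jasmonate synthesis, rose from 43.3 to 729 CPM (log2 fold change 4.08 ± 0.11). The other large rises were *ADS1*, which encodes a fatty acid desaturase (0.888 to 20.0 CPM, log2 fold change 4.49 ± 0.17), and AT2G40460, a transporter of the major facilitator superfamily (0.833 to 19.0 CPM, log2 fold change 4.56 ± 0.29). For each of these genes every WUS-GR library lay above every Col-0 library.

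The largest falls were chosen under the same minimum of a mean log2 CPM of 3, which leaves out falls of genes with few counts. AT1G27020, which encodes an uncharacterized protein, had 358, 428 and 532 CPM in the Col-0 libraries and 2.97, 11.6 and 7.84 CPM in the WUS-GR libraries (log2 fold change -5.87 ± 0.37). *RAP2.6*, an AP2/ERF transcription factor, had 116, 82.3 and 105 CPM in the Col-0 libraries and 0.806, 3.61 and 0.920 CPM in the WUS-GR libraries (log2 fold change -5.81 ± 0.37, adjusted p = 1.14e-06). In both genes the second WUS-GR replicate kept the highest level of the 3. Large falls were also found for AT1G28190, an uncharacterized protein (158 to 3.56 CPM, log2 fold change -5.46 ± 0.33), AT5G61520, a major facilitator transporter (58.8 to 1.26 CPM, log2 fold change -5.52 ± 0.34), AT3G51660, a tautomerase-like protein (61.1 to 1.45 CPM, log2 fold change -5.38 ± 0.39), the sulphate transporter gene *AST91* (37.6 to 0.937 CPM, log2 fold change -5.31 ± 0.26), and *ABO3* (18.2 to 0.459 CPM, log2 fold change -5.30 ± 0.25), named for the abscisic acid hypersensitivity of its mutant. *PTF1*, a TCP-family regulator first described for plastid genes, fell from 18.8 to 0.582 CPM (log2 fold change -4.99 ± 0.26). Of the 256 nuclear genes lower by 8-fold or more, 172 (67.2%) had their highest WUS-GR level in replicate 2, with a median level of 0.77 CPM in this library against 0.45 CPM in replicate 1 and 0.48 CPM in replicate 3. The median of their mean level in Col-0 was 8.08 CPM. These genes were chosen by their difference between genotypes, so its size beside the differences among the WUS-GR replicates was set by the choice.

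Some genes had 3 or fewer counts in each library of one genotype and were called, 26 higher and 40 lower in WUS-GR. Such genes passed the filter on low counts only through the other genotype. Their direction was thus set by the filter and the choice, and their counts are given as a description. *PUB18* (AT1G10560, chromosome 1, 3484399 to 3486965, plus strand), a U-box ubiquitin ligase that restrains abscisic acid responses, had 2, 3 and 3 counts in the Col-0 libraries and 264, 284 and 239 counts in the WUS-GR libraries. The ratio of its summed counts per library size was 87.6, with a 95% counting interval of 44.2 to 204. On the other side, AT4G34810, a *SAUR*-like gene (chromosome 4, 16598958 to 16599568, plus strand), had 90, 99 and 116 counts in the Col-0 libraries and 1, 2 and 0 counts in the WUS-GR libraries, a ratio of 114 in the direction of Col-0 with an interval of 38.7 to 557. AT5G18840, which encodes a major facilitator protein, and *ABCG8*, which encodes an ABC transporter, had summed counts of 241 and 205 in Col-0 and of 3 in WUS-GR. These intervals cover counting error only.

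Genes induced by abscisic acid and cold rose as a group. Abscisic acid is the hormone of water deficit, and it shares many targets with the cold response, in which the CBF transcription factors bind the CCGAC core of the drought- and cold-responsive element. All 16 listed genes were tested and all were higher, 14 of them by at least 2-fold, with a median log2 fold change of 2.57 against 0.017 over all genes. Their summed level was 3034 to 3561 CPM in the Col-0 libraries and 9925 to 10011 CPM in the WUS-GR libraries, with no overlap. The list was chosen with earlier results of these data known, so the rise of all 16 is a description and not independent support.

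*COR15A* (AT2G42540, chromosome 2, 17710441 to 17712330, minus strand), which encodes a chloroplast protein that stabilizes membranes during freezing, had 3.09, 5.17 and 6.48 CPM in the Col-0 libraries and 197, 194 and 244 CPM in the WUS-GR libraries. All WUS-GR libraries lay far above all Col-0 libraries (log2 fold change 5.40 ± 0.21, adjusted p = 7.70e-08). Its tandem neighbour *COR15B* rose from 2.49 to 78.9 CPM (log2 fold change 4.99 ± 0.14). *KIN1*, a small hydrophilic cold-induced protein, had 0.940, 0.796 and 1.58 CPM in the Col-0 libraries and 45.8, 41.8 and 39.7 CPM in the WUS-GR libraries (log2 fold change 5.24 ± 0.18, adjusted p = 5.18e-08). *LTI78* (AT5G52310, chromosome 5, 21240717 to 21243644, plus strand), also known as *RD29A* and widely used as a reporter of cold and drought signalling, had 83.3, 72.4 and 83.9 CPM in the Col-0 libraries and 1492, 1433 and 1217 CPM in the WUS-GR libraries (log2 fold change 4.11 ± 0.11, adjusted p = 3.66e-08). The dehydrins *COR47* and *LTI30*, named after their values were seen, rose from 837 to 3258 CPM (log2 fold change 1.96 ± 0.09) and from 11.4 to 142 CPM (log2 fold change 3.62 ± 0.22). *LTI65*, also known as *RD29B* and named in the same way, rose from 3.40 to 22.1 CPM (log2 fold change 2.74 ± 0.19). The CBF genes themselves were near the detection limit, and *CBF1* had 2, 2 and 1 counts in the Col-0 libraries and 13, 19 and 23 counts in the WUS-GR libraries. *CBF1* passed the filter on low counts through the WUS-GR libraries alone, so its call is no further support for a rise. *COR15B* shares 468 bases with a gene annotated on the other strand.

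The sequences before the start of *COR15A*, *LTI78*, *LTI30* and *LTI65* are shown because these promoters hold the element that the CBF factors bind. Each gives the 250 bases before the annotated start on the gene's strand, from RefSeq with build TAIR10.1. Capitals mark CCGAC on either strand (CCGAC or GTCGG) and, in *LTI65*, matches to the abscisic acid response element (ACGTGGC or ACGTGTC on either strand).
COR15A, chr2:17712331-17712580, minus strand: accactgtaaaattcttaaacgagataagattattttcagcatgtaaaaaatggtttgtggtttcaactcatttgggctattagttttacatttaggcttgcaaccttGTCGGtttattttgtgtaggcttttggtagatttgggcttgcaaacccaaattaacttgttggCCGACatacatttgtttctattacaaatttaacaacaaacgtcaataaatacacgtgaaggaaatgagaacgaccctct
LTI78, chr5:21240467-21240716, plus strand: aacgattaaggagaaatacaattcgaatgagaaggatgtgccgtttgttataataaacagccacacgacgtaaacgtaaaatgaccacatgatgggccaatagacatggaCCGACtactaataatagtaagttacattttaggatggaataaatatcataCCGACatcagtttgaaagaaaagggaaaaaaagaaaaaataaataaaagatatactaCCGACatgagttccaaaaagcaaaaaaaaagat
LTI30, chr3:18940393-18940642, plus strand: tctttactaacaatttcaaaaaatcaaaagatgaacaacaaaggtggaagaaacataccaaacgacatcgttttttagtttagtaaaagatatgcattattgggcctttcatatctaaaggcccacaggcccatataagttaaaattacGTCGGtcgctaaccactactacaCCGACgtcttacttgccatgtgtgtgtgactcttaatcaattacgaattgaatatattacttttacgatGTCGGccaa
LTI65, chr5:21236771-21237020, plus strand: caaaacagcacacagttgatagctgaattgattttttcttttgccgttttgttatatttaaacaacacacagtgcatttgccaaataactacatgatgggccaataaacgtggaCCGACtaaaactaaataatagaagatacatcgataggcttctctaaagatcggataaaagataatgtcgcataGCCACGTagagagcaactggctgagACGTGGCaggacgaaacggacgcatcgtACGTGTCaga

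*COR15A* held CCGAC on either strand 79 and 142 bases before the start, and *LTI78* held it 33, 90 and 140 bases before the start. From 250 bases before to 50 bases after the start, CCGAC on either strand was found in 4 of the 16 promoters of the group (25.0%) and in 15.0% of all 27443 promoters in the annotation. *COR15B*, *KIN1* and *COR47* rose without a match in this window. Among genes called at least 2-fold higher, 18.8% of promoters held CCGAC, against 11.4% of those called at least 2-fold lower and 17.2% of those tested and not called. The abscisic acid response element was found in 12.8%, 7.34% and 8.58% of these promoters, and in 7.64% of all promoters. The G-box (CACGTG), which overlaps some of the latter matches, was found in 13.2%, 8.09% and 8.26%, and in 7.68% of all promoters. A match is a description of the sequence only.

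Genes of abscisic acid synthesis and signalling moved in both directions, with 13 higher and 12 lower among 35 tested (median log2 fold change 0.11). Of the 6 receptor genes of the PYR/PYL family on the list that were tested, *PYL4*, *PYL5*, *PYL6* and *PYR1* fell, *PYL7* rose and *PYL1* did not pass the test, and the last 3 of these were named after their values were seen. *PYL4* (AT2G38310, chromosome 2, 16049918 to 16051356, plus strand) had 172, 185 and 183 CPM in the Col-0 libraries and 3.47, 12.6 and 5.33 CPM in the WUS-GR libraries (log2 fold change -4.66 ± 0.34, adjusted p = 2.71e-06). Every WUS-GR library was below every Col-0 library, and the second replicate kept the highest level. *PYL6* fell from 8.27 to 0.322 CPM (log2 fold change -4.65 ± 0.59) and *PYL5* from 141 to 30.5 CPM (log2 fold change -2.21 ± 0.14). The log2 fold change was -1.48 ± 0.10 for *PYR1*, 1.79 ± 0.08 for *PYL7*, which shares 616 bases with a gene on the other strand, and -0.27 ± 0.20 for *PYL1*. *ABI1*, a protein phosphatase that the receptors inhibit, fell from 143 to 81.5 CPM (log2 fold change -0.81 ± 0.10). *PUB19*, the close relative of *PUB18*, rose from 0.906 to 5.46 CPM (log2 fold change 2.61 ± 0.22). The synthesis gene *NCED3*, which was low in all libraries, did not pass the test (log2 fold change -0.19 ± 0.27, adjusted p = 0.573).

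Transcripts of the plastid genome were higher in WUS-GR, with a wide spread between libraries. Of 133 plastid-encoded genes in the table, 97 were tested, 89 were higher and 0 lower, with a median log2 fold change of 3.24. They took 0.115%, 0.0778% and 0.148% of all counts in the Col-0 libraries and 1.32%, 0.609% and 0.315% in the WUS-GR libraries. The groups did not overlap, but the first WUS-GR replicate had by far the largest share, and it was the highest of the 3 for 95 of the 97 genes. Without this replicate 85 of 98 genes were still higher and 1 was lower, and the median log2 fold change was 2.48. Leaving out Col-0 replicate 1 also gave 1 lower gene. RNA had been selected for poly(A) tails, which leaves little plastid RNA, and differences in the selection between libraries were not tested. ATCG01090 had 1.14, 1.19 and 2.3 CPM in the Col-0 libraries and 147, 61.5 and 22.3 CPM in the WUS-GR libraries (log2 fold change 5.61 ± 0.71, adjusted p = 0.000103), which shows the same order of libraries. Mitochondrion-encoded genes differed less, as of 23 tested 7 were higher and 3 lower, and their share of counts ran from 0.0855% to 0.116% in Col-0 and from 0.0737% to 0.125% in WUS-GR.

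**Figure D2:**
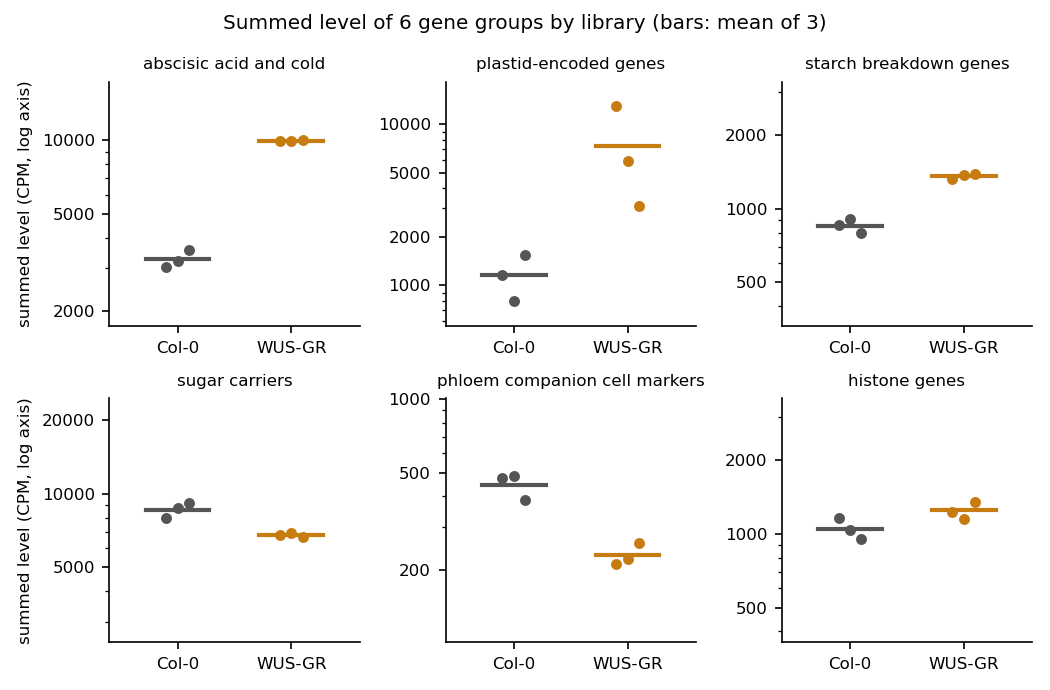
Summed level in CPM (vertical axes, logarithmic) of 6 gene groups in each of the 3 Col-0 and 3 WUS-GR libraries (points; horizontal bars give the mean of each genotype). The cold-regulated genes lie close together within each genotype at 3034 to 3561 and 9925 to 10011 CPM, while the plastid-encoded genes spread from 3106 to 12970 CPM among the WUS-GR libraries.

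Nuclear genes for light harvesting and carbon fixation were more often higher than lower. Of 40 tested, 25 were higher and 3 lower (median log2 fold change 0.52), and their summed level was 28352 to 33339 CPM in Col-0 and 36642 to 44344 CPM in WUS-GR. *LHCB2.3*, an antenna protein of photosystem II, rose from 12.9 to 66.7 CPM (log2 fold change 2.37 ± 0.10) and *PSBTN*, a photosystem II subunit, from 59.7 to 153 CPM (log2 fold change 1.36 ± 0.10). Small-subunit genes of Rubisco stood on the other side. *RBCS2B* had 349, 327 and 447 CPM in the Col-0 libraries and 67.9, 67.4 and 71.5 CPM in the WUS-GR libraries (log2 fold change -2.44 ± 0.12, adjusted p = 2.40e-07) and *RBCS1B* fell from 25.2 to 4.47 CPM (log2 fold change -2.50 ± 0.12), whereas *RBCS1A* did not pass the test (log2 fold change -0.22 ± 0.11, adjusted p = 0.116). The *RBCS* genes are close copies that lie partly in tandem, so reads could have been split among them.

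Genes of chlorophyll synthesis and greening were called in both directions, and of 22 tested 9 were higher and 6 lower. *GPRI1*, also known as *GLK1*, which switches on photosynthesis genes, fell from 14.1 to 5.34 CPM (log2 fold change -1.40 ± 0.17), and *CGA1*, a cytokinin-responsive GATA factor with a role in chloroplast development, fell from 2.83 to 0.247 CPM (log2 fold change -3.50 ± 0.45). Among the sigma factors, nuclear proteins that direct the plastid RNA polymerase to promoters, 4 were higher and 2 lower of 6. *SIG4* rose from 22.7 to 69.9 CPM (log2 fold change 1.63 ± 0.09) and *SIGE*, a light-responsive member, fell from 76.4 to 44.0 CPM (log2 fold change -0.80 ± 0.10). Carotenoid and isoprenoid genes were mostly higher, 10 against 2 lower of 19, led by *BETA-OHASE 2*, a beta-carotene hydroxylase (28.1 to 98.5 CPM, log2 fold change 1.80 ± 0.10), while *HDR*, the last enzyme of the plastid isoprenoid pathway, fell from 424 to 262 CPM (log2 fold change -0.70 ± 0.08).

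Sugar carriers were lower as a group. SWEET proteins let sugars leave cells, SUC and STP proteins import them with protons, and together they load the phloem and feed growing tissue. Of 18 carriers tested, 4 were higher and 12 lower, 10 of them by at least 2-fold, with a median log2 fold change of -1.27. *SWEET11* (AT3G48740, chromosome 3, 18052466 to 18054832, minus strand), which exports sucrose from leaf parenchyma for phloem loading, had 370.3, 406 and 399 CPM in the Col-0 libraries and 40.9, 54.0 and 46.2 CPM in the WUS-GR libraries (log2 fold change -3.06 ± 0.11, adjusted p = 6.06e-08). *SWEET17*, a fructose carrier of the vacuole, fell from 9.44 to 0.419 CPM (log2 fold change -4.46 ± 0.42). *SUC2*, the main sucrose loader of the phloem, had 184, 194 and 177 CPM in the Col-0 libraries and 60.5, 65.2 and 61.6 CPM in the WUS-GR libraries (log2 fold change -1.57 ± 0.07, adjusted p = 1.88e-07). The groups of libraries did not overlap for these 3 genes. In contrast *SWEET16* rose from 9.87 to 21.5 CPM (log2 fold change 1.12 ± 0.14) and the hexose importer *STP1* from 3344 to 4743 CPM (log2 fold change 0.50 ± 0.10). Markers of phloem companion cells, which include *SUC2*, were lower in 4 of 7, and their summed level was 385 to 482 CPM in Col-0 and 211 to 258 CPM in WUS-GR. *PP2-A1*, a phloem lectin, fell from 31.2 to 11.8 CPM (log2 fold change -1.40 ± 0.13) and *APL*, a regulator of phloem identity, from 9.89 to 4.03 CPM (log2 fold change -1.29 ± 0.14), whereas *SULTR2;1* rose from 48.6 to 63.7 CPM (log2 fold change 0.39 ± 0.12). The part of phloem cell number in the fall of the carriers was not tested.

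Genes of starch breakdown rose in 13 of 16 cases and fell in 0 (median log2 fold change 0.65). *SEX1*, the glucan water dikinase that opens starch granules, had 272, 298 and 248 CPM in the Col-0 libraries and 455, 469 and 475 CPM in the WUS-GR libraries (log2 fold change 0.78 ± 0.08, adjusted p = 3.17e-05). *RCP1*, the maltose exporter of the chloroplast also known as *MEX1*, rose from 2.22 to 7.19 CPM (log2 fold change 1.70 ± 0.17) and *LSF2*, a starch phosphatase, from 1.18 to 3.33 CPM (log2 fold change 1.53 ± 0.27). Of the sugar-induced and starch synthesis genes 10 were higher and 3 lower of 16. *GPT2*, a plastid glucose-phosphate carrier that sugars induce, had 8.13, 6.02 and 9.59 CPM in the Col-0 libraries and 0.302, 0.192 and 0.242 CPM in the WUS-GR libraries (log2 fold change -4.98 ± 0.29, adjusted p = 7.16e-07), while *APL3*, a subunit of ADP-glucose pyrophosphorylase that sugars also induce, rose from 0.555 to 4.76 CPM (log2 fold change 3.10 ± 0.23). These sugar-induced genes thus moved apart. Among genes that respond to carbon starvation, 13 were higher and 4 lower of 19, and 3 and 4 of these changed by at least 2-fold. The trehalose-phosphate synthase genes *TPS11* and *TPS10* rose from 292 to 772 CPM (log2 fold change 1.40 ± 0.10) and from 333 to 713 CPM (log2 fold change 1.1 ± 0.08). *DIN10*, a raffinose synthase of dark-treated leaves, had 5346, 5550 and 6213 CPM in the Col-0 libraries and 1409, 1715 and 1419 CPM in the WUS-GR libraries (log2 fold change -1.91 ± 0.11, adjusted p = 5.96e-07), and *DIN11*, an oxygenase gene found in the same screen, fell from 810.2 to 170.3 CPM (log2 fold change -2.25 ± 0.22).

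Nitrogen genes were called in both directions. Of 25 genes of nitrate uptake and assimilation tested, 12 were higher and 6 lower (median log2 fold change 0.32). The nitrate reductase genes *NIA1* and *NIA2* rose from 2840 to 5429 CPM (log2 fold change 0.93 ± 0.08) and from 8250 to 10326 CPM (log2 fold change 0.32 ± 0.09), the latter call being lost without Col-0 replicate 3, and nitrite reductase, *NIR1*, fell from 116 to 66.5 CPM (log2 fold change -0.80 ± 0.10). *NRT1.1*, the dual-affinity nitrate transporter and sensor, rose from 16.2 to 42.2 CPM (log2 fold change 1.39 ± 0.12). The asparagine synthetase genes went in opposite directions, *ASN1* from 4327 to 9065 CPM (log2 fold change 1.07 ± 0.09) and *ASN2* from 206 to 17.3 CPM (log2 fold change -3.58 ± 0.13). In *ASN2* the libraries had 226, 206 and 187 CPM in the Col-0 libraries and 16.2, 20.5 and 15.1 CPM in the WUS-GR libraries, without overlap. *LBD37* and *LBD38*, which repress nitrogen-responsive genes, also moved apart, from 440.3 to 759 CPM (log2 fold change 0.79 ± 0.07) and from 51.7 to 6.93 CPM (log2 fold change -2.90 ± 0.17).

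Phosphate starvation genes were lower in 8 of 15 tested and higher in 3 (median log2 fold change -0.86). *SPX1*, an inhibitor of the phosphate starvation regulator, fell from 45.6 to 9.74 CPM (log2 fold change -2.22 ± 0.17), *PAP17*, a purple acid phosphatase, fell from 5.96 to 1.50 CPM (log2 fold change -1.98 ± 0.25), and *SQD2*, which makes sulpholipid, rose from 23.1 to 46.7 CPM (log2 fold change 1.01 ± 0.08). In sulphate assimilation 6 were higher and 5 lower of 15. *APS1*, the ATP sulfurylase at the entry of the pathway, had 1822, 1600 and 1756 CPM in the Col-0 libraries and 701, 690.3 and 629 CPM in the WUS-GR libraries (log2 fold change -1.36 ± 0.09, adjusted p = 1.09e-06), and the vacuolar sulphate exporter *SULTR4;1* fell from 51.6 to 12.8 CPM (log2 fold change -2.02 ± 0.11). *APR3*, an APS reductase, rose from 183 to 382 CPM (log2 fold change 1.06 ± 0.11). Of the iron homeostasis genes 3 were higher and 4 lower of 12, with rises of the ferritin genes *FER3* (13.7 to 29.6 CPM, log2 fold change 1.11 ± 0.10) and *FER4* (13.6 to 23.0 CPM, log2 fold change 0.76 ± 0.11) and a fall of the reductase gene *FRO3* (143 to 63.1 CPM, log2 fold change -1.18 ± 0.09).

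Histone genes were mostly higher, and S-phase genes were higher more often than lower. Of 35 histone genes tested, 23 were higher and 1 lower (median log2 fold change 0.72), and of 21 genes of S phase 10 were higher and 3 lower. *HTB2* (AT5G22880, chromosome 5, 7651868 to 7652714, minus strand), which encodes histone H2B, had 4.43, 3.63 and 2.60 CPM in the Col-0 libraries and 21.7, 17.4 and 20.2 CPM in the WUS-GR libraries (log2 fold change 2.49 ± 0.17, adjusted p = 1.81e-06). *PCNA2*, the sliding clamp of DNA polymerase, rose from 1.48 to 4.38 CPM (log2 fold change 1.57 ± 0.22), and *TSO2*, a small subunit of ribonucleotide reductase, from 2.38 to 5.97 CPM (log2 fold change 1.33 ± 0.15). The variant histone gene *HTA9*, which encodes an H2A.Z protein, fell from 239 to 141 CPM (log2 fold change -0.76 ± 0.11). Of 16 mitotic genes 6 were higher and 1 lower, and *POK2*, a kinesin that guides the division plane, rose from 1.81 to 3.89 CPM (log2 fold change 1.11 ± 0.24). *CYCB1;1*, a cyclin of the G2 phase and mitosis, did not pass the test at 0.470, 0.647 and 0.510 CPM in the Col-0 libraries and 0.755, 0.481 and 0.629 CPM in the WUS-GR libraries (log2 fold change 0.18 ± 0.34, adjusted p = 0.687). Inhibitors of cyclin-dependent kinases rose in 4 of 6 cases, among them *KRP6* (6.68 to 14.5 CPM, log2 fold change 1.11 ± 0.13) and *ICK1* (2.18 to 4.23 CPM, log2 fold change 0.95 ± 0.22).

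Genes of the ribosome were slightly lower. Of 50 ribosomal protein genes with eukaryote-type names, 4 were higher and 28 lower, and of 12 nucleolar genes 0 were higher and 9 lower. The changes were small, with medians of -0.33 and -0.38 on the log2 scale and 1 ribosomal gene lower by 2-fold or more. *NAP57*, the pseudouridine synthase of ribosomal RNA, fell from 29.0 to 15.4 CPM (log2 fold change -0.90 ± 0.20), *FIB2*, fibrillarin, from 8.59 to 5.30 CPM (log2 fold change -0.69 ± 0.19) and *NUC-L1*, nucleolin, from 377 to 291 CPM (log2 fold change -0.37 ± 0.07). Of 37 proteasome subunits 7 were higher and 11 lower. Promoters with a site II element (TGGGCC or TGGGCT), common in ribosomal and other housekeeping genes, made up 20.0% of those of genes at least 2-fold higher, 12.7% of those at least 2-fold lower and 30.0% of those not called, against 21.7% of all promoters, from 250 bases before to 50 bases after the start.

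**Figure D3:**
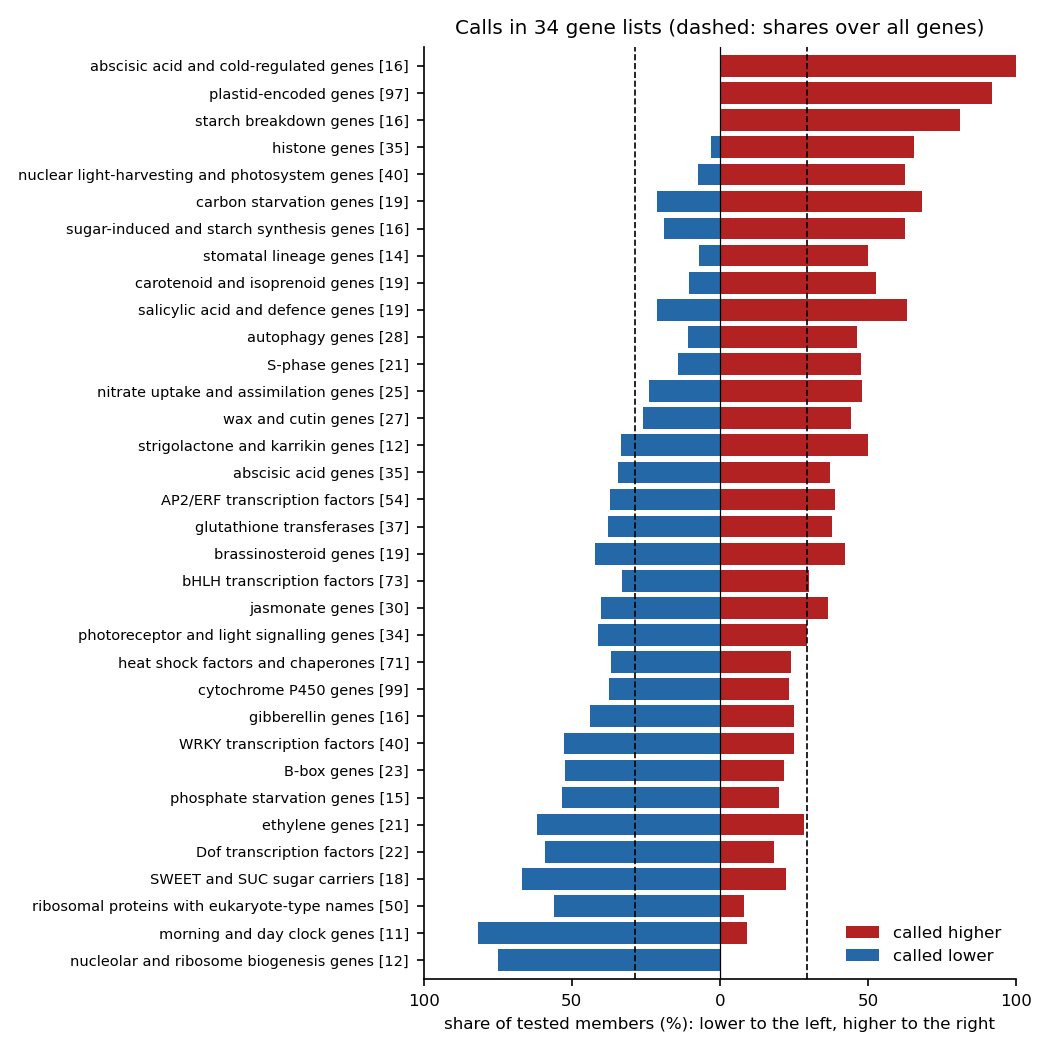
Share of the tested members of 34 gene lists called higher (bars to the right) and called lower (bars to the left) in WUS-GR, in percent, with the number tested in brackets. Dashed lines mark the shares over all genes tested, 29.3% and 28.6%. Cold-regulated, plastid-encoded and starch breakdown genes extend far to the right with no member lower, and sugar carriers, morning clock genes and nucleolar genes extend to the left.

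Ethylene genes were lower in 13 of 21 cases and higher in 6 (median log2 fold change -0.62). Ethylene is made from ACC, the product of ACC synthase, and is sensed by receptors that hold the kinase CTR1 active in its absence. *ACS7* (AT4G26200, chromosome 4, 13275200 to 13277188, plus strand), an ACC synthase, had 6.31, 8.61 and 11 CPM in the Col-0 libraries and 0.806, 1.92 and 0.823 CPM in the WUS-GR libraries (log2 fold change -2.86 ± 0.32, adjusted p = 4.67e-05), and every WUS-GR library was below every Col-0 library. *CTR1*, named after its values were seen, fell from 674 to 171 CPM (log2 fold change -1.98 ± 0.10). Of the receptors *ETR2* fell from 37.2 to 15.9 CPM (log2 fold change -1.22 ± 0.11) and *ERS1* rose from 96.5 to 256 CPM (log2 fold change 1.41 ± 0.08). *EBF2*, an F-box protein that removes the regulator EIN3 and is itself induced by ethylene, fell from 237 to 69.6 CPM (log2 fold change -1.77 ± 0.11), while *EIN3* rose from 402 to 472 CPM (log2 fold change 0.23 ± 0.07), a call that was lost without Col-0 replicate 1 or WUS-GR replicate 1 or 2. The oxidase-like gene AT1G77330 rose from 4.97 to 20.2 CPM (log2 fold change 2.03 ± 0.14).

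Jasmonate genes were called in both directions, with 11 higher and 12 lower among 30. Jasmonate is made in the chloroplast by lipoxygenase, allene oxide synthase (AOS) and allene oxide cyclase (AOC), and completed by OPR3 in the peroxisome. *LOX2* (AT3G45140, chromosome 3, 16525245 to 16529352, plus strand) had 46.9, 36.9 and 45.9 CPM in the Col-0 libraries and 749, 701 and 737 CPM in the WUS-GR libraries (log2 fold change 4.08 ± 0.11, adjusted p = 3.65e-08). *AOC1* (AT3G25760, chromosome 3, 9403779 to 9405338, plus strand) went the other way with 157, 121 and 153 CPM in the Col-0 libraries and 3.07, 6.78 and 2.52 CPM in the WUS-GR libraries (log2 fold change -5.12 ± 0.28, adjusted p = 4.87e-07). No library of either genotype overlapped the other in these genes. *AOC2*, its neighbour on the chromosome, fell from 278 to 43.5 CPM (log2 fold change -2.67 ± 0.15) and *AOS* from 135 to 29.9 CPM (log2 fold change -2.17 ± 0.16), whereas *OPR3* rose from 88.7 to 167 CPM (log2 fold change 0.91 ± 0.07). The repressor gene *JAZ10*, which jasmonate induces, rose from 12.6 to 55.0 CPM (log2 fold change 2.11 ± 0.18), and *VSP2*, a late marker of the response, from 2.55 to 6.08 CPM (log2 fold change 1.27 ± 0.30). *AOC1* and *AOC2* are close paralogs, so their counts may be split. *MYC2*, the main transcription factor of the pathway, had 0 counts in all 6 libraries and shares 3241 bases with a gene annotated on the other strand, so its level could not be read.

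Genes of salicylic acid and defence were more often higher, 12 against 4 of 19 tested, though 2 higher and 3 lower changed by at least 2-fold. *EDS1*, a lipase-like defence regulator, rose from 4.46 to 14.0 CPM (log2 fold change 1.64 ± 0.12), its partner *PAD4* from 9.20 to 14.7 CPM (log2 fold change 0.68 ± 0.13) and *SARD1*, an activator of salicylic acid synthesis, from 1.15 to 5.83 CPM (log2 fold change 2.32 ± 0.20). *EDS16*, isochorismate synthase, which makes most salicylic acid, fell from 9.88 to 1.63 CPM (log2 fold change -2.59 ± 0.20), and *PAD3*, the last enzyme of camalexin synthesis, from 3.94 to 0.572 CPM (log2 fold change -2.79 ± 0.44). The marker gene *PR1* had 0 counts in all 6 libraries.

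Cytokinin genes were of interest because WUS represses type-A response regulators in the meristem. Of 10 such genes 5 were tested, and 2 were higher and 1 lower. *ARR7* had 2.75, 3.08 and 2.19 CPM in the Col-0 libraries and 0.655, 1.06 and 0.484 CPM in the WUS-GR libraries (log2 fold change -1.86 ± 0.30), all WUS-GR libraries below all Col-0 libraries. *ARR4* and *ARR9* went the other way, from 7.21 to 31.5 CPM (log2 fold change 2.12 ± 0.13) and from 2.93 to 15.6 CPM (log2 fold change 2.42 ± 0.16). Among receptors, phosphotransmitters and type-B regulators 6 were higher and 5 lower of 13, with a rise of *WOL*, the receptor also known as *AHK4* (1.38 to 3.10 CPM, log2 fold change 1.17 ± 0.22), and a fall of *ARR11* (3.34 to 0.734 CPM, log2 fold change -2.18 ± 0.23). In cytokinin metabolism 3 were higher and 4 lower of 13. The largest change was a fall of *LOG8* (AT5G11950, chromosome 5, 3854388 to 3857243, plus strand), which releases active cytokinin from its ribotide, with 32.2, 31.0 and 28.6 CPM in the Col-0 libraries and 1.56, 2.36 and 1.55 CPM in the WUS-GR libraries (log2 fold change -4.06 ± 0.15, adjusted p = 6.61e-08). *LOG5* fell from 5.65 to 0.359 CPM (log2 fold change -3.95 ± 0.32), and *CKX7*, which degrades cytokinin, rose from 6.54 to 14.7 CPM (log2 fold change 1.17 ± 0.13). Of 4 cytokinin response factors 0 were higher and 1 lower, the fall being that of *CRF5* (11.2 to 8.00 CPM, log2 fold change -0.48 ± 0.13).

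Gibberellin genes were lower in 7 of 16 and higher in 4. *RGA1*, a DELLA repressor of growth, fell from 27.1 to 6.02 CPM (log2 fold change -2.17 ± 0.15), and *RGL3*, another DELLA gene, rose from 12.5 to 32.8 CPM (log2 fold change 1.40 ± 0.16). *GA20OX5* fell from 6.35 to 0.410 CPM (log2 fold change -3.95 ± 0.45). The GASA peptide gene *GASA1*, which gibberellin induces, had 559, 747 and 820.4 CPM in the Col-0 libraries and 157, 154 and 177 CPM in the WUS-GR libraries (log2 fold change -2.13 ± 0.14, adjusted p = 1.19e-06), and 2 of 3 members tested were lower. Brassinosteroid genes were called as often in either direction, 8 higher and 8 lower of 19. *ROT3*, a P450 enzyme of the pathway, rose from 8.80 to 38.3 CPM (log2 fold change 2.12 ± 0.11) and *BAS1*, which inactivates the hormone, from 9.49 to 23.6 CPM (log2 fold change 1.31 ± 0.09), while *DWF4*, an early and rate-limiting step, fell from 25.5 to 12 CPM (log2 fold change -1.08 ± 0.15) and the sterol desaturase gene *STE1* from 12.2 to 4.08 CPM (log2 fold change -1.58 ± 0.18). Among strigolactone and karrikin genes 6 were higher and 4 lower of 12. *KAI2*, the karrikin receptor, had 11.7, 11.2 and 10.6 CPM in the Col-0 libraries and 52.4, 51.3 and 53.1 CPM in the WUS-GR libraries (log2 fold change 2.23 ± 0.08, adjusted p = 6.34e-08), and *MAX2*, the F-box partner of both receptors, fell from 73.9 to 43.7 CPM (log2 fold change -0.76 ± 0.09).

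**Figure D4:**
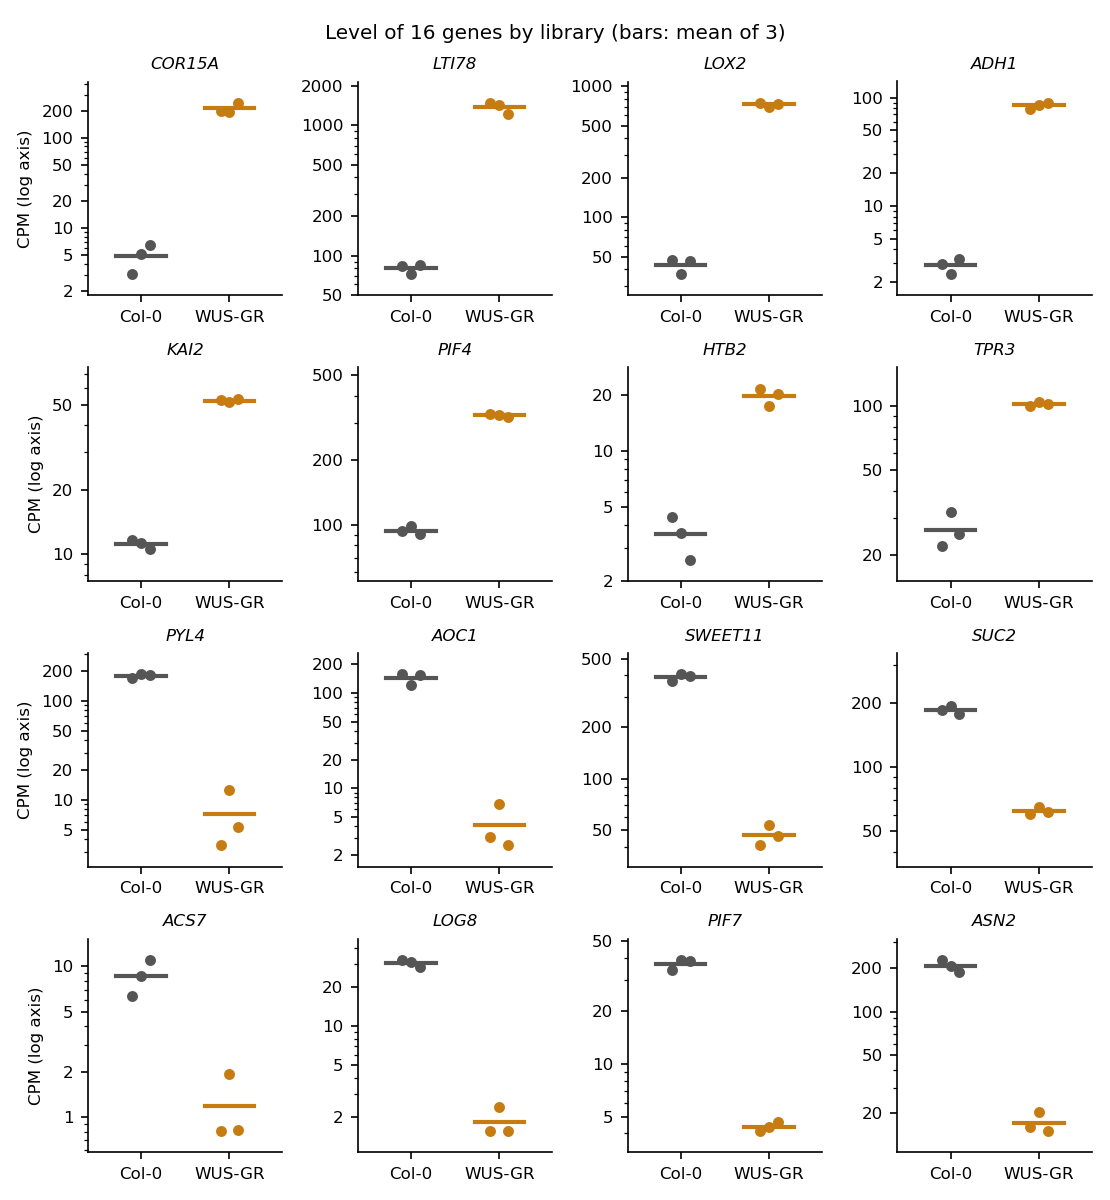
Level in CPM (vertical axes, logarithmic) of 16 genes in each of the 3 Col-0 and 3 WUS-GR libraries (points), with the mean of each genotype as a horizontal bar. Lack of overlap between the genotypes was a condition for showing a gene here. The WUS-GR libraries lie above the Col-0 libraries for *COR15A*, *LTI78*, *LOX2*, *ADH1*, *KAI2*, *PIF4*, *HTB2* and *TPR3* and below them for the other 8.

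Among transcription factor families, Dof, WRKY and TCP genes were lower more often than higher. Dof factors are plant-specific zinc finger proteins, several of which act in the vasculature. Of 22 Dof genes tested, 4 were higher and 13 lower, with 11 lower by at least 2-fold and a median log2 fold change of -1.17. *OBP2*, a vascular Dof gene with a role in indole glucosinolate synthesis, had 31.3, 35.1 and 35.1 CPM in the Col-0 libraries and 2.82, 3.99 and 3.39 CPM in the WUS-GR libraries (log2 fold change -3.31 ± 0.13, adjusted p = 7.70e-08). AT2G28810 fell from 8.45 to 1.03 CPM (log2 fold change -3.02 ± 0.23), and *DOF2* rose from 5.95 to 13.8 CPM (log2 fold change 1.21 ± 0.12). Of 40 WRKY genes, which act mainly in defence and senescence, 10 were higher and 21 lower (median -0.63). *WRKY75* had 24.4, 32.4 and 50.1 CPM in the Col-0 libraries and 2.01, 2.02 and 1.65 CPM in the WUS-GR libraries (log2 fold change -4.24 ± 0.28, adjusted p = 1.35e-06), *WRKY8* fell from 4.66 to 0.389 CPM (log2 fold change -3.57 ± 0.43), and *WRKY70*, induced by salicylic acid, rose from 6.14 to 17.3 CPM (log2 fold change 1.51 ± 0.14). Of 15 TCP genes, regulators of leaf growth and branching, 2 were higher and 8 lower (median -0.63). AT1G72010 fell from 25.1 to 2.40 CPM (log2 fold change -3.38 ± 0.18) and *TCP14*, which promotes cell division in internodes and seeds, from 23.7 to 3.82 CPM (log2 fold change -2.63 ± 0.20), while *TCP2* rose from 3.82 to 5.60 CPM (log2 fold change 0.55 ± 0.15). *PTF1*, described among the largest falls, is not on the TCP list, which was matched by the annotation. *ABO3*, a WRKY gene described in the same place, is likewise not on the WRKY list, whose lowest log2 fold change was -4.24.

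AP2/ERF, R2R3 MYB, NAC and bHLH genes were called higher and lower in closer numbers. The AP2/ERF list was matched by the wording of the annotation and does not hold *RAP2.6*, described among the largest falls. For AP2/ERF genes 21 were higher and 20 lower of 54, with a fall of AT5G61590 (173 to 5.61 CPM, log2 fold change -4.94 ± 0.45) and of *ESE3* (5.96 to 0.306 CPM, log2 fold change -4.24 ± 0.46), and a rise of *DDF1* (0.464 to 3.37 CPM, log2 fold change 2.81 ± 0.30), a relative of the CBF genes. R2R3 MYB genes counted 11 higher and 14 lower of 40, with *MYB73* up from 17.6 to 106 CPM (log2 fold change 2.60 ± 0.16) and *MYB31* down from 19.5 to 2.61 CPM (log2 fold change -2.90 ± 0.20). NAC genes counted 10 and 12 of 37, with *NAC032* up from 49.5 to 212 CPM (log2 fold change 2.1 ± 0.07) and *NAC047* down from 16.0 to 2.76 CPM (log2 fold change -2.54 ± 0.29). Of 73 bHLH genes 22 were higher and 24 lower, with a rise of *FBH3*, an activator of *CONSTANS* (2.02 to 14.9 CPM, log2 fold change 2.88 ± 0.19). GATA genes were lower in 7 of 17 (41.2%, against 28.6% over all genes) and higher in 3 (17.6%, against 29.3%). Their summed level was nevertheless higher in WUS-GR, 534 to 581 CPM against 238 to 275 CPM in Col-0. *GATA4* rose from 179 to 493 CPM (log2 fold change 1.46 ± 0.09) and *GATA3* fell from 15.4 to 6.09 CPM (log2 fold change -1.34 ± 0.12). Of 5 LBD genes tested 2 were higher and 1 lower.

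Clock genes were more often lower than higher. Of 11 morning and day genes 1 was higher and 9 lower (median log2 fold change -0.58), and of 9 evening genes 1 was higher and 5 lower (median -0.28). *CCA1*, a morning repressor, had 34.2, 39.3 and 37.9 CPM in the Col-0 libraries and 21.3, 20.7 and 23.1 CPM in the WUS-GR libraries (log2 fold change -0.78 ± 0.09, adjusted p = 4.45e-05). *RVE8*, an activator of evening genes, fell from 15.3 to 6.64 CPM (log2 fold change -1.21 ± 0.11) and the repressor *PRR7* from 893 to 661 CPM (log2 fold change -0.43 ± 0.09), while *RVE2* rose from 8.57 to 26.9 CPM (log2 fold change 1.64 ± 0.12). In the evening group *PCL1*, also known as *LUX*, fell from 85.5 to 42.9 CPM (log2 fold change -0.99 ± 0.07), *TOC1* from 141 to 104 CPM (log2 fold change -0.43 ± 0.07) and *GI* from 116 to 82.7 CPM (log2 fold change -0.49 ± 0.09), and *ELF3*, the partner of LUX in the evening complex, rose from 70.6 to 87.7 CPM (log2 fold change 0.31 ± 0.07). Called genes of both groups, which peak at opposite times of day, were thus mostly lower. The time of harvest of each library is not given in the sources used here, and its part in these values was not tested.

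Light signalling genes were called 10 times higher and 14 times lower among 34 tested. *PIF7* (AT5G61270, chromosome 5, 24638491 to 24640765, minus strand), a bHLH factor that drives growth in shade, had 34.3, 39.1 and 38.7 CPM in the Col-0 libraries and 4.13, 4.33 and 4.65 CPM in the WUS-GR libraries (log2 fold change -3.10 ± 0.10, adjusted p = 4.69e-08). *PIF4*, which drives growth in warmth, went the other way with 93.1, 98.3 and 90.3 CPM in the Col-0 libraries and 330.2, 327 and 319 CPM in the WUS-GR libraries (log2 fold change 1.79 ± 0.07, adjusted p = 8.77e-08). Both changes were well outside the spread of the replicates. *HY5*, the main activator of light-grown development, fell from 17.7 to 3.19 CPM (log2 fold change -2.47 ± 0.19) and *PHYA*, the far-red receptor, from 235 to 177 CPM (log2 fold change -0.41 ± 0.07), while *FHY1*, which carries phytochrome A into the nucleus, rose from 4.42 to 13.4 CPM (log2 fold change 1.59 ± 0.16). B-box genes were lower in 12 of 23 and higher in 5, and *BBX14* fell from 19.7 to 1.15 CPM (log2 fold change -4.08 ± 0.24) and *COL9* from 34.7 to 8.57 CPM (log2 fold change -2.02 ± 0.11). A shared stretch of 318 bases with a gene on the other strand limits the reading of *PIF7*, and one of 329 bases that of *BBX14*.

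Regulators of the shoot meristem and of leaf polarity were lower in 35.3% and 31.25% of those tested, near the 28.6% over all genes. They were higher in 5.88% and 12.5%, against 29.3% over all genes. Of 17 meristem regulators 1 was higher and 6 lower. *CLV1*, the receptor kinase that limits the stem cell domain, fell from 19.4 to 11.7 CPM (log2 fold change -0.73 ± 0.12) and *HAM1*, a GRAS protein that works with WUS, from 14.1 to 8.80 CPM (log2 fold change -0.69 ± 0.11). *STM*, the KNOX gene of the meristem, did not pass the test (log2 fold change -0.06 ± 0.28, adjusted p = 0.859). *CLV3*, at 0 to 2 counts per library, was too low to test. *HEC1*, a bHLH gene that WUS represses in the meristem, rose from 16.1 to 29.2 CPM (log2 fold change 0.86 ± 0.12), the called gene among the 3 stem cell markers tested. Of the 14 *WOX* genes, the family of WUS, 3 had enough counts, and *WOX13* fell from 3.05 to 0.986 CPM (log2 fold change -1.65 ± 0.36). Of 16 leaf polarity genes 2 were higher and 5 lower, with rises of the small zipper genes *ZPR1* (1.59 to 7.86 CPM, log2 fold change 2.3 ± 0.20) and *ZPR4* (0.700 to 4.48 CPM, log2 fold change 2.64 ± 0.24), whose proteins inhibit HD-ZIP III factors, and falls of *KAN*, also known as *KAN1* (41.2 to 21.9 CPM, log2 fold change -0.91 ± 0.09), and *YAB5* (12.7 to 7.62 CPM, log2 fold change -0.74 ± 0.13). The HD-ZIP III genes *PHB* (log2 fold change -0.21 ± 0.16, adjusted p = 0.287) and *REV* (log2 fold change -0.19 ± 0.22, adjusted p = 0.48) did not pass the test.

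Leaf growth and epidermal patterning showed some larger changes. Of 10 growth regulators of the GRF and GIF families 1 was higher and 2 lower. *GRF3* fell from 21.4 to 7.57 CPM (log2 fold change -1.49 ± 0.20), its co-activator *AN3* fell from 29.4 to 12.7 CPM (log2 fold change -1.20 ± 0.27) and *GRF8* rose from 1.39 to 3.89 CPM (log2 fold change 1.51 ± 0.34). The Col-0 libraries spread widely in *AN3*, with 40.6, 31.6 and 15.9 CPM against 12.9, 11.9 and 13.5 CPM in the WUS-GR libraries. In the stomatal lineage 7 were higher and 1 lower of 14, and *SPCH*, which starts the lineage, fell from 2.33 to 0.523 CPM (log2 fold change -2.13 ± 0.35), while *FMA*, which sets guard cell fate, rose from 4.52 to 11.9 CPM (log2 fold change 1.38 ± 0.12) and the receptor kinase gene *ERL2* from 5.04 to 14.5 CPM (log2 fold change 1.54 ± 0.24). Trichome and root hair patterning genes were lower in 4 of 6 tested, with falls of *GL2* (12.3 to 3.65 CPM, log2 fold change -1.74 ± 0.33) and *MYB23* (7.56 to 1.21 CPM, log2 fold change -2.62 ± 0.46). Floral and flowering genes were lower in 6 of 14 and higher in 1. *FLC*, the repressor of flowering, fell from 13.6 to 7.27 CPM (log2 fold change -0.91 ± 0.12), and it shares 804 bases with a gene on the other strand. *LFY*, which sets floral meristem identity, rose from 0.269 to 0.943 CPM (log2 fold change 1.84 ± 0.41). It passed the filter on low counts through the WUS-GR libraries alone, so its call is no further support for a rise. Of 7 root stem cell regulators 2 were higher and 2 lower, with *SHR* up from 2.26 to 3.15 CPM (log2 fold change 0.48 ± 0.18), a call that was lost without any of 5 of the 6 libraries, and *JKD* down from 5.84 to 2.31 CPM (log2 fold change -1.32 ± 0.33).

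Genes of chromatin and RNA silencing were called in both directions. For histone deacetylases and TOPLESS co-repressors 6 were higher and 7 lower of 19, and all 4 that rose by at least 2-fold were *TOPLESS*-related genes or *SRT1*. *TPR3* (AT5G27030, chromosome 5, 9508718 to 9515565, minus strand) had 22.0, 31.8 and 25.1 CPM in the Col-0 libraries and 100.5, 105 and 102 CPM in the WUS-GR libraries (log2 fold change 1.95 ± 0.12, adjusted p = 9.12e-07), *TPR1* rose from 69.9 to 203 CPM (log2 fold change 1.54 ± 0.09) and *TPR2*, named after its values were seen, from 104 to 296 CPM (log2 fold change 1.51 ± 0.07). *TPL* itself fell from 392 to 319 CPM (log2 fold change -0.30 ± 0.08), and *HD2C*, a plant-specific deacetylase, from 96.3 to 57.5 CPM (log2 fold change -0.74 ± 0.07). Among Polycomb and trithorax genes 7 were higher and 3 lower of 20, with a rise of *REF6*, which removes the Polycomb mark (13.2 to 22.8 CPM, log2 fold change 0.79 ± 0.09), and a fall of *JMJD5* (20.1 to 9.26 CPM, log2 fold change -1.11 ± 0.23). DNA methylation genes counted 5 higher and 3 lower of 14. *MET1*, which maintains CG methylation, rose from 1.49 to 4.71 CPM (log2 fold change 1.66 ± 0.20), and *CMT3*, which maintains CHG methylation, fell from 5.64 to 3.03 CPM (log2 fold change -0.91 ± 0.24). Of 19 small RNA genes 9 were higher and 4 lower. *AGO10*, the Argonaute that sequesters miR165/166 in the meristem, fell from 43.9 to 16.8 CPM (log2 fold change -1.39 ± 0.12) and *DCL1*, which cuts miRNA precursors, from 78.5 to 46.8 CPM (log2 fold change -0.75 ± 0.11), and *AGO3* rose from 0.988 to 6.52 CPM (log2 fold change 2.73 ± 0.26).

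Genes of low oxygen and of stress moved in both directions. Of 14 hypoxia response genes 6 were higher and 4 lower. The fermentation genes *ADH1* and AT4G33070, a pyruvate decarboxylase, rose by 4.88 and 3.37 on the log2 scale, and the group VII ERF genes *RAP2.2* and *EBP*, whose proteins switch on fermentation genes in low oxygen, fell from 126 to 25.6 CPM (log2 fold change -2.3 ± 0.10) and from 1653 to 502 CPM (log2 fold change -1.72 ± 0.14). *EBP* had 1685, 1566 and 1708 CPM in the Col-0 libraries and 421, 459 and 625 CPM in the WUS-GR libraries. Heat shock factors and chaperones were lower in 26 of 71 and higher in 17, with AT4G21870, a small heat shock protein, down from 100.2 to 3.55 CPM (log2 fold change -4.81 ± 0.37). Genes of the unfolded protein response counted 3 higher and 6 lower of 14, and *BZIP60*, which activates them, fell from 362 to 147 CPM (log2 fold change -1.30 ± 0.10). Antioxidant enzymes counted 10 and 9 of 24, with *APX1*, cytosolic ascorbate peroxidase, down from 729 to 323 CPM (log2 fold change -1.18 ± 0.08) and *GPX1*, a glutathione peroxidase, up from 98.2 to 289.6 CPM (log2 fold change 1.56 ± 0.08). Glutathione transferases counted 14 and 14 of 37, with *GSTU12* down from 7.49 to 0.556 CPM (log2 fold change -3.75 ± 0.40). Calmodulin-like and touch genes counted 2 and 2 of 11.

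Senescence genes were lower in 7 of 12 cases, including *SAG21* (2465 to 832 CPM, log2 fold change -1.57 ± 0.08) and *NAP*, a NAC factor that promotes leaf senescence (23.4 to 5.24 CPM, log2 fold change -2.16 ± 0.18), and higher in 1, that of *SAG20* (1443 to 1776 CPM, log2 fold change 0.30 ± 0.08). Autophagy genes rose in 13 of 28 and fell in 3. *APG7*, which activates ATG8 for lipid attachment, rose from 13.2 to 22.0 CPM (log2 fold change 0.74 ± 0.08) and *APG9*, a membrane protein, from 25.4 to 43.0 CPM (log2 fold change 0.76 ± 0.09), whereas *ATG8E* fell from 271 to 106 CPM (log2 fold change -1.36 ± 0.11). Aquaporins were balanced at 7 and 7 of 21. *PIP2E*, an aquaporin of the plasma membrane, had 404, 417 and 423 CPM in the Col-0 libraries and 1535, 1462 and 1551 CPM in the WUS-GR libraries (log2 fold change 1.87 ± 0.07, adjusted p = 9.27e-08).

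Specialized metabolism held several large falls. Of 23 glucosinolate genes tested 7 were higher and 10 lower. *CYP81F2*, which modifies indole glucosinolates, had 94.9, 124 and 153 CPM in the Col-0 libraries and 11.5, 17.4 and 7.55 CPM in the WUS-GR libraries (log2 fold change -3.35 ± 0.27, adjusted p = 4.67e-06). *MYB28*, the main activator of the methionine-derived branch, fell from 2.96 to 0.179 CPM (log2 fold change -3.98 ± 0.44) and *MAM1*, which elongates methionine in that branch, from 10.6 to 0.874 CPM (log2 fold change -3.58 ± 0.53). *FMO GS-OX4*, which oxidizes side chains in the same branch, rose from 9.10 to 92.1 CPM (log2 fold change 3.33 ± 0.14) and *CYP79B2*, which opens the indole branch, from 10.3 to 41.5 CPM (log2 fold change 2.00 ± 0.30). In lignin and phenylpropanoid synthesis 9 were higher and 7 lower of 21, and *PAL3*, a phenylalanine ammonia-lyase, had 17.7, 15.6 and 16.4 CPM in the Col-0 libraries and 0.101, 0.962 and 0.339 CPM in the WUS-GR libraries (log2 fold change -5.11 ± 0.34, adjusted p = 1.57e-06). *MYB4*, which represses the pathway, fell from 455 to 129.9 CPM (log2 fold change -1.81 ± 0.08), and the laccase gene *IRX12* rose from 0.580 to 4.78 CPM (log2 fold change 3.05 ± 0.37). Of 23 flavonoid genes 5 had enough counts to be tested, and 1 was higher and 3 lower, the falls including *MYBL2*, an inhibitor of anthocyanin synthesis (153 to 52.6 CPM, log2 fold change -1.54 ± 0.11). Wax and cutin genes were higher in 12 of 27 and lower in 7, with *KCS1*, an elongase of very long fatty acids, down from 35.9 to 3.94 CPM (log2 fold change -3.18 ± 0.25), and the MYB genes *MYB16* and *MYB30* up from 3.75 to 12.2 CPM (log2 fold change 1.70 ± 0.12) and from 6.35 to 15.2 CPM (log2 fold change 1.26 ± 0.12). Of 3 suberin genes tested 1 was higher and 1 lower.

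Cell wall genes were called in both directions. Among 12 expansins 6 were higher and 4 lower, all by at least 2-fold, with *EXPA16* up from 1.36 to 8.92 CPM (log2 fold change 2.72 ± 0.26) and *EXPA9* down from 4.54 to 1.02 CPM (log2 fold change -2.12 ± 0.39). Xyloglucan-modifying enzymes were lower in 7 of 20 and higher in 3, with *XTH6* up from 5.31 to 30.5 CPM (log2 fold change 2.53 ± 0.16) and *XTH9* down from 7.32 to 1.79 CPM (log2 fold change -2.02 ± 0.23). Of 8 cellulose synthases 5 were higher and 2 lower. *CESA1*, needed for the primary wall, rose from 323 to 472 CPM (log2 fold change 0.55 ± 0.07), and *CESA6* and *CESA2*, which share a place in its complex, fell from 258 to 130.1 CPM (log2 fold change -0.99 ± 0.07) and from 99.7 to 53.5 CPM (log2 fold change -0.90 ± 0.08). For xylem and vascular genes 7 were higher and 5 lower of 17, with a fall of *TMO6* (4.59 to 1.27 CPM, log2 fold change -1.83 ± 0.28), a Dof factor of the provascular tissue. Of the large enzyme families, 23 of 99 P450 genes were higher and 37 lower, and 27 of 74 UDP-glycosyltransferases were higher and 26 lower. Of the P450 genes 25 were lower and 7 higher by at least 2-fold, and *CYP76C2* fell the most of those whose mean log2 CPM exceeded 1 (5.73 to 0.244 CPM, log2 fold change -4.52 ± 0.25).

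**Figure D5:**
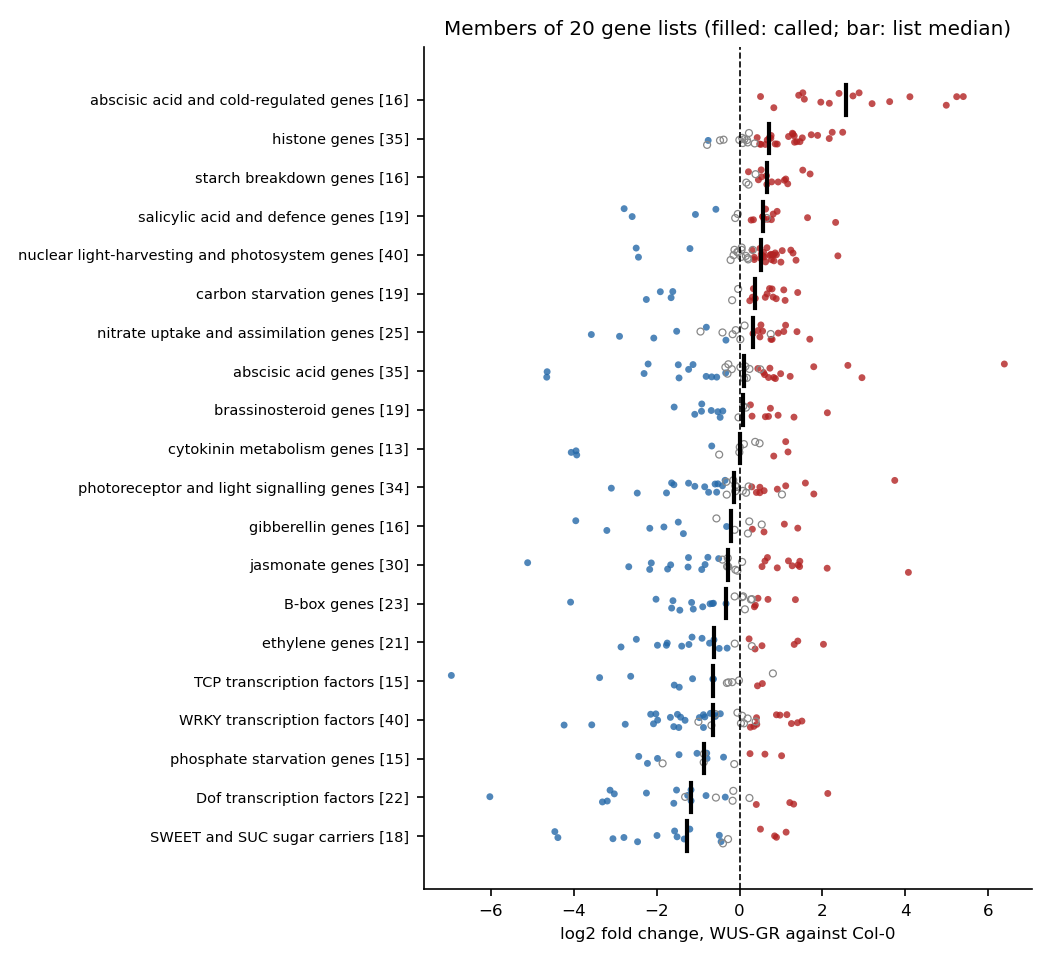
Log2 fold change (horizontal axis) of each tested member of 20 gene lists (points, filled where called), with the list's median as a vertical bar and the median over all genes tested, 0.017, as a dashed line. Members of the cold-regulated group all lie to the right of 0, while the hormone and family lists span both sides.

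Markers of cell types were used to check what the seedling samples held. Leaf mesophyll markers were strongly expressed in all libraries, 12933 to 16898 CPM summed in Col-0 and 16228 to 20503 CPM in WUS-GR, and 9 were higher and 2 lower of 14, with *CA1*, a carbonic anhydrase of the chloroplast, up from 16.9 to 86.5 CPM (log2 fold change 2.35 ± 0.09) and *GAPA* down from 1365 to 833 CPM (log2 fold change -0.71 ± 0.09). Of 15 markers of the root epidermis and endodermis 4 had enough counts and 4 had 0 counts in every library, among them the root hair genes *SHV2*, also known as *COBL9*, and *PRP3*. Their summed level was 18.3 to 23.2 CPM in Col-0 and 14.3 to 20.8 CPM in WUS-GR. The root hair regulators *RHD6* and *RSL4* and the root iron transporter *IRT1*, taken from other lists, were at 0 as well. These genes were thus not detected in samples that the labels call whole seedlings, whereas the endodermal genes *CASP1* and *CASP2* were. Of the 4 epidermis and endodermis markers tested, 3 were higher and 1 lower. The endodermal gene *CASP1* rose from 2.25 to 7.95 CPM (log2 fold change 1.78 ± 0.29), and *CASP2* was the member that fell, from 16.4 to 3.71 CPM (log2 fold change -2.14 ± 0.14). Of 10 other root-enriched genes 6 were tested and 3 were higher and 1 lower, with *PYK10* and *NAI2*, which form ER bodies also found in cotyledons and hypocotyls, up from 165 to 387 CPM (log2 fold change 1.23 ± 0.10) and from 95.8 to 239 CPM (log2 fold change 1.32 ± 0.13), and *GLP5* down from 29.9 to 7.16 CPM (log2 fold change -2.06 ± 0.15). Guard cell markers counted 3 higher and 2 lower of 8, with *OST1*, a kinase of stomatal closure, up from 21.4 to 39.0 CPM (log2 fold change 0.86 ± 0.08) and the potassium channel gene *KAT1* down from 3.09 to 1.04 CPM (log2 fold change -1.57 ± 0.27). Their summed level was 59.2 to 66.4 CPM in Col-0 and 82.5 to 91.4 CPM in WUS-GR. Of 19 genes of seed maturation and the embryo 1 was tested, *LEC1*, a regulator of embryo identity. It had 2, 0 and 4 counts in the Col-0 libraries and 10, 10 and 24 counts in the WUS-GR libraries (log2 fold change 2.63 ± 0.72). *LEC1* passed the filter on low counts through the WUS-GR libraries alone, so its test is no further support for a rise. The summed level of the 19 genes was 0.498 to 1.17 CPM in Col-0 and 2.08 to 2.36 CPM in WUS-GR.

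Fold changes went weakly with gene structure. With genes put in 5 equal bins by exonic length, the median log2 fold change was -0.10 in the shortest bin and 0.063 in the longest, and with bins by GC content it was -0.088 in the lowest bin and 0.063 in the middle one. The share of genes called higher was 22.0% in the shortest bin and 32.1% in the longest, and the share lower 31.6% and 26.1%. By GC content, 33.5% were lower in the lowest bin and 25.2% in the middle one. The cause of these shifts was not tested. The motif TTAATGG, described for WUS binding, was found on either strand, from 250 bases before to 50 bases after the start, in 8.16% of genes called higher, 8.74% of genes called lower and 9.27% of genes not called, against 8.10% of all promoters. The sugar-repressed element (TATCCA) was found in 19.0%, 16.9% and 15.6%, against 16.1% of all promoters. Such shares describe the promoters and say nothing about binding.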

How the data were processed

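Whole seedlings of Col-0 and WUS-GR were compared in DEX without TSA, with 3 libraries of each genotype as the labels give them. The authors aligned reads of poly(A)-selected, directional libraries to TAIR10 with HISAT2, counted them with featureCounts and analysed them with DESeq2. The deposited values are raw counts per gene, not normalized. The strand setting of counting is not given in the sources used here. The study's methods call the 3 replicates biological, and p-values measure the spread between these samples.

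Counts were fitted in edgeR 4.0.16 (R 4.3.3) with genotype as the only factor, TMM normalization and filterByExpr (minimum count 10). A gene with few counts in 1 genotype can pass this filter through the other genotype alone, which then sets its direction. The 2-sided quasi-likelihood test was adjusted over 17285 genes by Benjamini-Hochberg. Of 34262 genes in the table, 10880 had no count in the 6 libraries. The RefSeq annotation of TAIR10.1 matched 32548 identifiers (95.0%), and unmatched ones held 0.540% of counts. Standard errors were derived from the log2 fold change and its test statistic. Figures were drawn with Matplotlib 3.10.9.

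The comparison, its 86 gene lists and the alternatives were chosen with earlier results of these data known, and some list members were corrected against the annotation after values were seen. Lists were described by counts and medians, with no test. Genes were named by rule: *WUS*, the 2 largest rises and 2 largest falls of each list among called genes with a mean log2 CPM over 1 and no overlap between genotypes, key members of each list, the 10 largest changes per direction among nuclear genes with a mean log2 CPM over 3, and 3 called genes per direction whose libraries of one genotype held at most 3 counts each. Some of these were left out, and 8 genes outside the rule are marked in the text. Alternatives were other normalizations, filters and thresholds, a replicate block, an offset for GC content and length, DESeq2 1.42.0, a fit of all 12 libraries and leaving out each library. On simulated counts for this comparison over 16849 genes, the test recovered 81.7% of 93 genes changed 2-fold and 99.0% of 97 changed 4-fold. Of its calls 6.52% were false. Few genes were changed in the simulation, whereas 57.9% were called in the data, so these rates may not hold for the data.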

Additional observations from a re-analysis of the deposited data

How the results depend on the processing

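The number of genes called ran from 8617 to 9680 when each library was left out in turn, against 10002 with all 6, with 4312 to 4848 higher and 4303 to 4851 lower. A replicate block gave 9155 calls and a block with an offset for GC content and length 9268. Other normalizations, filters, the offset alone, DESeq2 and the fit of all 12 libraries gave 9220 to 10175 calls, and an adjusted p under 0.01 gave 7598. Between 76.0% and 98.8% of the calls were shared with these settings, and none was called in the opposite direction. The same replicate numbers did not pair the libraries, as deviations of same-numbered libraries correlated at -0.046, -0.045 and -0.287. Requiring a change of at least 2-fold left 3679 genes, 1768 higher and 1911 lower. With the 250 bases before the start alone, the share of promoters with an abscisic acid response element among genes at least 2-fold higher was 11.08%, against 12.78% with 50 bases after the start included. The cause of this difference is the shorter window.

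Of the 242 genes named, 188 kept their call, or its absence, under every setting. Most of the lost calls came from stricter thresholds, 49 with the requirement of at least 2-fold and 6 with an adjusted p under 0.01. The value of *STM*, which was not called, ran from -0.25 to 0.24 when each library was left out, against -0.06, with 0.24 without Col-0 replicate 1 and 0.012 without either of WUS-GR replicates 1 and 2. Without Col-0 replicate 3, *RBCS1A* (-0.31), *PHB* (-0.37) and *REV* (-0.45) were called lower. Besides *MYC2*, 22 of the named genes share over 100 bases with a gene annotated on the other strand, which limits their reading. They include *DCL1* (846 bases), *PCL1* (698), *EBF2* (626), *LHCB2.3* (595), *KAN* (460), *SARD1* (441) and *TPR3* (315). For genes with few counts, such as *CBF1* and *LEC1*, depth limits how precisely a change can be given.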
